A study of Mus musculus with 33 samples.

Results

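The small nuclear RNA (snRNA) and small nucleolar RNA (snoRNA) genes were examined in iCLIP of the RNA-binding protein hnRNP R. A gene record belonged to the set when the first biotype listed for it in the deposited count files was snRNA or snoRNA. The set held 2972 of 36194 gene records, 1427 snRNA and 1545 snoRNA. The records carry 223 RNA names, because most names stand for many copies: U6 has 946 records, SNORA17 613 and U1 209. iCLIP crosslinks protein to RNA with ultraviolet light, recovers the RNA with an antibody and counts cDNAs that stop at the crosslinked base. Each value below is a number of same-strand cDNAs, or that number for every 1000000 cDNAs of its library (CPM).

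The iCLIP libraries came from wild-type primary motoneurons of CD-1 mice and from NSC34, a mouse motoneuron-like hybrid line, with no treatment. Antibody 1 against hnRNP R was used on whole cells of each kind (2 libraries each), and on 1 nuclear and 1 cytoplasmic fraction of each kind. Antibody 2 gave 1 nuclear and 1 cytoplasmic library of NSC34, and IgG, which has no chosen target, gave 1 library of whole NSC34 cells. The RNA tables come from motoneurons of CD-1 mice in 3 groups, controls titled GFP, hnRNP R knockdown and 7SK knockdown, with 4, 3 and 4 libraries in each of the axonal and somatodendritic compartments. The labels do not say how the knockdowns were made. They also do not say that the paired libraries came from separate cultures, so p-values measure the spread between these libraries, which may be technical.

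snRNAs are the RNA cores of the spliceosome. U1 and U2 recognise the 5′ splice site and the branch point, U4, U5 and U6 join them in the major spliceosome, and U11, U12, U4atac and U6atac serve the minor one, while U7 acts in histone mRNA processing. snoRNAs guide the chemical modification of ribosomal RNA, box C/D types directing 2′-O-methylation and box H/ACA types pseudouridylation, and the related scaRNAs of Cajal bodies direct it on snRNAs. Many snoRNAs are cut out of introns of host genes. hnRNP R is a mostly nuclear RNA-binding protein that is also found in motor axons.

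The libraries differed widely in depth. The whole-cell hnRNP R libraries held 99762 to 456721 cDNAs and the IgG library 36280. The motoneuron fractions held 91302 (nuclear) and 194816 (cytoplasmic), and the NSC34 fractions 2796 to 48398. The file header of the IgG library names hnRNPR as its protein and carries library number 14, as does NSC34 replicate 2, so that its identity rests on its title. Of the motoneuron marker genes, 7 of 8 were in the annotation, and all 7 were at 0 cDNAs in both whole motoneuron libraries, against 37 and 6 cDNAs in the NSC34 libraries. Of 4 astrocyte markers, Slc1a3 and Aldh1l1 summed to 12 and 11 cDNAs in the whole motoneuron libraries, while Gfap and Aqp4 were at 0. All 4 were at 0 in both whole-cell NSC34 hnRNP R libraries, and the antibody 2 cytoplasmic library of NSC34 had 1 cDNA. Microglia markers gave 1 and 1 cDNAs in whole motoneurons and 1 and 0 in whole NSC34 cells. Fibroblast markers gave 2 and 0 against 0 and 0. Any part of these markers in the results was not tested. Mitochondrially encoded mRNAs, which lie outside the nucleus, had fewer cDNAs in each nuclear library (2, 6 and 0) than in its cytoplasmic partner (37, 20 and 24). Of 4 RNAs listed as nuclear, only Meg3 was in the annotation, and it separated the motoneuron fractions less. Meg3 had 762 nuclear cDNAs (8346 CPM) and 1051 cytoplasmic cDNAs (5395 CPM) there, and 0 in each NSC34 fraction.

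Most annotated copies were not seen. At least 1 cDNA fell on 487 of the 2972 records (235 snRNA, 252 snoRNA), only 51 records had 10 or more over all libraries, and 307 had 1 or 2. In all, 1858 cDNAs lay on snRNA and 799 on snoRNA records. U1 (921 cDNAs), U6 (616), the box C/D snoRNA snoU97 (93), U5 (85) and U2 (72) came first. SNORA17, an H/ACA name with 613 records, had 12 cDNAs in total. Across the 10 hnRNP R libraries, 10 cDNAs lay opposite the strand of a member record, 0.411% of both strands, against 3.50% over all genes. A read can match several near-identical copies, and whether such reads were assigned or dropped was not stated. The division of U1 or U6 cDNAs between records is therefore uncertain, and sums over a name are given first. Such sums, and the number of copies seen, would not include dropped reads.

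Together the members were a small part of every library, and the IgG library was not the lowest. snRNA made up 0.153% and 0.419% of cDNAs in NSC34 replicates 1 and 2, and 0.0432% and 0.0241% in motoneuron replicates 1 and 2. The IgG library had 0.488% (95% exact binomial interval 0.419 to 0.565), above all 4 whole-cell hnRNP R libraries. snoRNA made up 0.0368% and 0.0421% in NSC34, 0.0532% and 0.0235% in motoneurons, and 0.160% (interval 0.121 to 0.207) in IgG. These intervals cover counting error only. The snRNA shares of the 2 cell kinds did not overlap, with a mean of 0.286% ± 0.188 (SD, n = 2) in NSC34 and 0.0336% ± 0.0135 (SD, n = 2) in motoneurons. The two-sided exact permutation p was 0.333, the smallest that 2 against 2 libraries allow. The snoRNA shares overlapped (means 0.0394% and 0.0383%, exact permutation p = 1.0).

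**Figure D1:**
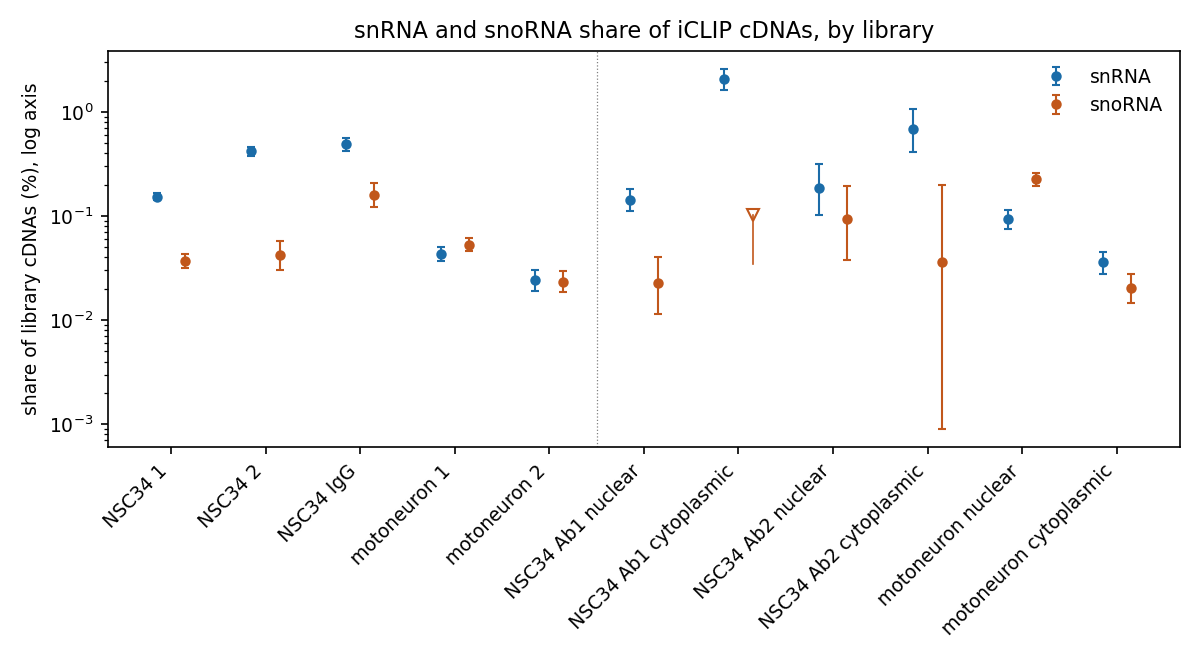
Share of all library cDNAs on snRNA (blue) and snoRNA (orange) records in each of the 11 libraries, in percent on a log axis. Bars are 95% exact binomial intervals, and the open triangle marks the upper bound for the library with no snoRNA cDNA. snRNA lies above snoRNA in every NSC34 library, while the order turns in motoneuron replicate 1 (0.0432% and 0.0532%) and in the motoneuron nuclear library (0.0931% and 0.226%).

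Of the spliceosomal RNAs tested, U1, U5, U6, U11 and U6atac had fewer hnRNP R cDNAs in motoneurons than in NSC34, while U2, U4 and U12 did not pass the test. U1 counted 384 and 244 cDNAs in NSC34 replicates 1 and 2, or 841 and 2446 CPM, and 68 and 40 in motoneurons, or 189 and 125 CPM. Both NSC34 values lay above both motoneuron values. The log2 fold change, motoneurons over NSC34, was -2.40 ± 0.33 (SE), with an adjusted p of 9.76e-08 by edgeR's quasi-likelihood test with Benjamini-Hochberg adjustment over all genes. NSC34 replicate 2 was the higher of the pair, and without it the log2 fold change was -1.60. DESeq2's Wald test called U1, U5 and U6atac of the names below.

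U6, the catalytic snRNA, counted 172 and 109 cDNAs in NSC34 (377 and 1093 CPM) and 47 and 23 in motoneurons (131 and 72.0 CPM). It too was lower in motoneurons with no overlap, by a log2 fold change of -1.80 ± 0.35 (SE) and an edgeR adjusted p of 6.28e-05. DESeq2's Wald test did not call it (adjusted p = 0.114). U5, which holds the exons together, gave 39 and 20 cDNAs in NSC34 against 4 and 5 in motoneurons (log2 -2.24 ± 0.54, edgeR adjusted p = 0.000967). In the minor spliceosome, U11 fell from 23 and 13 cDNAs to 3 and 1 (log2 -2.65 ± 0.74, edgeR adjusted p = 0.00402), and U6atac from 20 and 12 to 1 and 1 (log2 -3.41 ± 0.86, edgeR adjusted p = 0.0015). DESeq2 did not call U11 (adjusted p = 0.125).

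U2, U4, U7 and U12 did not pass the test. U2, the branch point snRNA, counted 27 and 6 cDNAs in NSC34 and 21 and 3 in motoneurons, 59.1 and 60.1 against 58.5 and 9.39 CPM. Its log2 fold change was 0.18 ± 0.54 (SE). CPM rest on library totals, while edgeR's fold changes also use TMM factors, 1.27 and 1.23 for NSC34 and 0.629 and 0.666 for motoneurons. By library size alone U2 stood at -0.77, the opposite sign. The log2 fold changes were -1.05 ± 1.08 for U4, -0.60 ± 1.15 for U7 and -1.09 ± 0.69 for U12. U12 counted 17 and 10 cDNAs in NSC34 against 8 and 1.

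**Figure D2:**
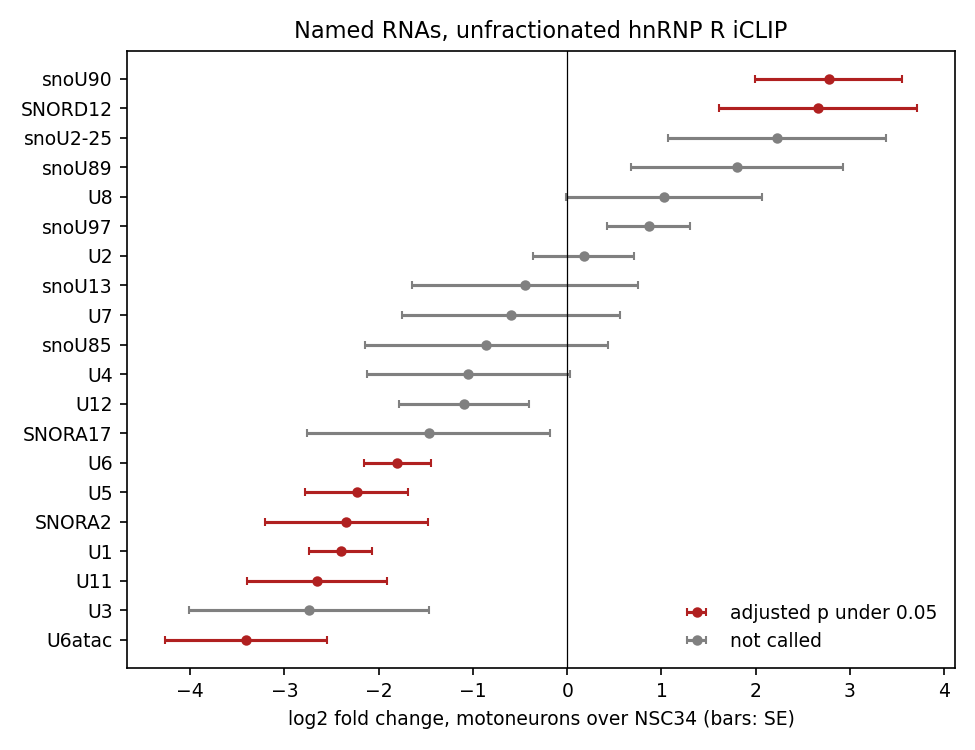
Log2 fold change (motoneurons over NSC34, whole cells, antibody 1) of 20 named RNAs with 10 or more cDNAs, with SE bars. Red points have an edgeR adjusted p under 0.05. SNORD113 and SNORD115, with no NSC34 cDNA, are left out. U1, U5, U6, U11, U6atac and SNORA2 lie to the left, and snoU90 and SNORD12 to the right.

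Of 22 named RNAs with the 10 cDNAs over the 5 whole-cell libraries that a test required, edgeR called 6 lower and 4 higher in motoneurons (36.8% of all features tested were called, 13.8% lower and 23.1% higher). Of 38 single records tested, 17 were called lower and 2 higher, beside 13.9% and 23.4%, together 37.3%, of the 9567 genes tested. The median log2 fold change was -1.76 over the 38 records and 0.08 over all genes. These are descriptions of the records with enough cDNAs, not of the 2972. A member low in a cell kind could reach the required 10 cDNAs through the other kind alone, where it is high. Scaling by library size alone put the median of all genes at -0.86, with 22 records called lower and 0 higher. On that scale 3554 of all 9567 genes tested were lower and 1343 higher. Of the 22 named RNAs, 8 were lower and 2 higher there, beside 3550 lower and 1346 higher of all 9551 features, and U1 stood at -3.33. An amount of RNA per cell and an amount bound per RNA cannot be told apart in these counts.

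Within U1, the difference between cell kinds was uneven across records. Over all libraries, 4 records held 554 of the 921 U1 cDNAs (60.2%). U1-ENSMUSG00000075978 (chr3:96132347-96132512, plus strand, mm9) had 68 and 64 cDNAs in NSC34 and 0 and 1 in motoneurons. No protein-coding, processed transcript or long intergenic noncoding RNA gene enclosed it. U1-ENSMUSG00000070246 (chr11:87236368-87236531, plus strand, inside Tex14 on the same strand) had 49 and 38 against 1 and 1. Their log2 fold changes were -6.60 ± 0.75 and -5.03 ± 0.71 (SE), with edgeR adjusted p of 1.14e-11 and 9.01e-09.

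The other pair among these leading U1 records kept more cDNAs in motoneurons. U1-ENSMUSG00000075736 (chr12:55797768-55797931, plus strand, enclosed by no gene of those kinds) had 95 and 49 cDNAs in NSC34 and 28 and 13 in motoneurons. Its log2 fold change was -1.43 ± 0.36 with an edgeR adjusted p of 0.000786. Counted as crosslink sites rather than cDNAs, the same record stood at 0.10. U1-ENSMUSG00000064594 (chr3:18077461-18077624, minus strand, inside Cyp7b1 on the same strand) had 33 and 31 against 8 and 5 (log2 -2.04 ± 0.54, edgeR adjusted p = 0.00148). The first pair of records made up 30.5% and 41.8% of U1 cDNAs in the NSC34 libraries and 1.47% and 5.0% in the motoneuron libraries. With that pair set aside, U1 still gave 585 and 1423 CPM in NSC34 and 187 and 119 in motoneurons. Some records with fewer cDNAs were near empty in motoneurons too. U1-ENSMUSG00000065369 had 25 and 13 cDNAs in NSC34 against 1 and 1 (log2 -3.62). U1-ENSMUSG00000065941 had 12 and 11 against 0 and 0 (log2 -6.33). Others did not fall: U1-ENSMUSG00000065371 and U1-ENSMUSG00000070194 stood at log2 0.28 and 0.11. The difference between records was not tested, and assignment of reads among near-identical U1 copies was not stated.

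**Figure D3:**
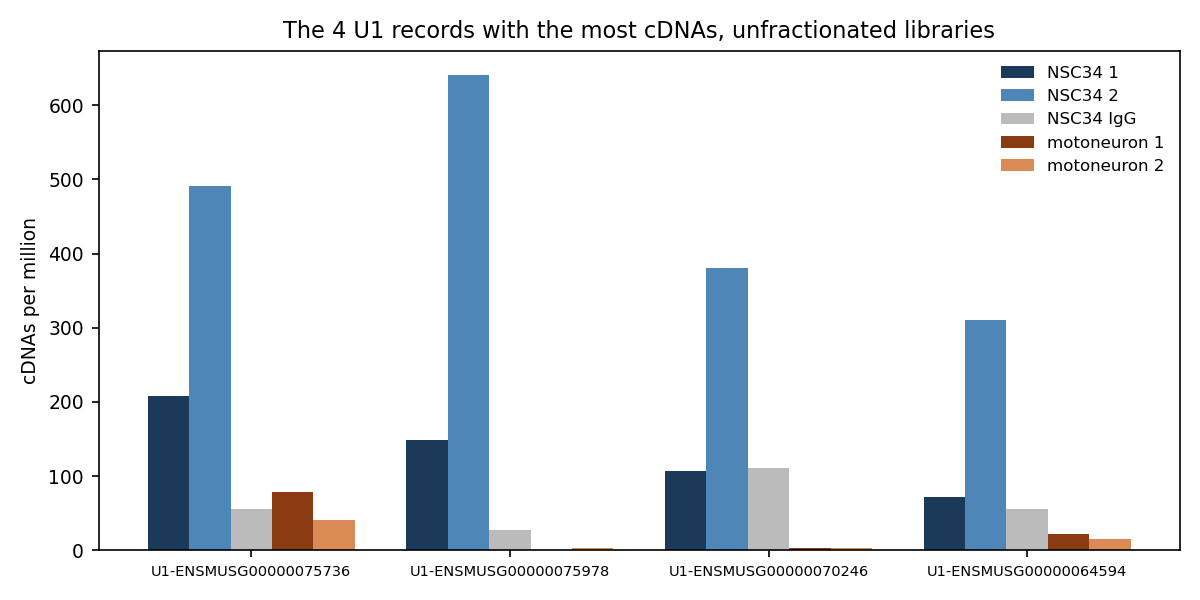
CPM on the 4 U1 records with the most cDNAs, in the 5 whole-cell libraries. U1-ENSMUSG00000075978 and U1-ENSMUSG00000070246 have at most 1 cDNA in a motoneuron library, while U1-ENSMUSG00000075736 has 28 and 13.

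On average over all snRNA sites, a crosslink site carried more cDNAs in NSC34, over more sites. snRNAs had 288 and 191 sites in NSC34 replicates 1 and 2, against 117 and 58 in motoneurons. There were 2.43 and 2.19 snRNA cDNAs per crosslink site in NSC34 replicates 1 and 2, and 1.32 and 1.33 in the motoneuron libraries. The IgG library had 1.28. U1 had 94 and 64 sites in NSC34 against 44 and 24 in motoneurons, and by sites its log2 fold change was -1.05 with an edgeR adjusted p of 0.00749. NSC34 replicate 2 had fewer cDNAs in total than either motoneuron library.

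Among snoRNAs, 4 names were higher in motoneurons. SNORD113, a box C/D family of the imprinted Dlk1-Dio3 region, had 4 and 13 cDNAs in motoneuron replicates 1 and 2 and none in NSC34. Against the 3 cDNAs that an empty pair of libraries allows, this was at least 4.65-fold higher, with an edgeR adjusted p of 0.000492. SNORD115, a box C/D family of the Prader-Willi region made in neurons, had 8 and 6 against none, at least 3.83-fold higher (edgeR adjusted p = 0.00109). DESeq2 did not call SNORD113 (adjusted p = 0.492) and gave no adjusted p for SNORD115. Without NSC34 replicate 1 the edgeR adjusted p rose to 0.0673 and 0.104. Meg3, a long noncoding RNA of the same imprinted region as SNORD113, had 2093 and 1948 cDNAs in motoneurons and 5 and 1 in NSC34.

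snoU90, a scaRNA inside Kpna4 (chr3:68889026-68889368, minus strand), had 12 and 7 cDNAs in motoneurons and 3 and 1 in NSC34, a log2 fold change of 2.77 ± 0.78 (SE, edgeR adjusted p = 0.00435). SNORD12, a box C/D snoRNA, had 12 and 1 against 3 and 0, so that 1 motoneuron library carried the rise (log2 2.66 ± 1.05, edgeR adjusted p = 0.0433). By library size alone, neither passed (log2 1.86 and 1.75, edgeR adjusted p = 0.0541 and 0.153), and DESeq2's adjusted p for snoU90 was 0.119. SNORA2, an H/ACA snoRNA, moved the other way, with 18 and 6 cDNAs in NSC34 and 2 and 1 in motoneurons (log2 -2.34 ± 0.86, edgeR adjusted p = 0.0297). DESeq2 did not call it (adjusted p = 0.382).

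The most abundant snoRNA did not separate the cell kinds. snoU97 (chr7:118219573-118219740, minus strand, inside Eif4g2) had 28 and 5 cDNAs in NSC34 and 26 and 12 in motoneurons, 61.3 and 50.1 against 72.4 and 37.6 CPM, and the groups overlapped. Its log2 fold change was 0.86 ± 0.45 (SE, edgeR adjusted p = 0.129), while pooled CPM, which take no TMM factor, gave a motoneuron to NSC34 ratio of 0.945. U3, which acts in the first cleavages of ribosomal RNA, counted 9 and 3 in NSC34 and 1 and 0 in motoneurons (edgeR adjusted p = 0.0886). One of its records, U3-ENSMUSG00000065870, held all 12 NSC34 cDNAs and none of motoneurons, at least 4.88-fold lower against 3 cDNAs over the pair of libraries. edgeR called this record (adjusted p = 0.0184), but not with the replicate number as a block (adjusted p = 0.0611), and DESeq2 did not call it (adjusted p = 0.149). U8, needed for 28S and 5.8S ribosomal RNA, counted 3 and 3 against 9 and 0.

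The IgG library differed from hnRNP R in which snRNA it held. U1 made up 54.9% and 58.4% of snRNA cDNAs in the whole-cell NSC34 libraries and 11.9% (exact binomial interval 7.50 to 17.6) in IgG. U6 made up 24.6% and 26.1% with hnRNP R and 72.9% (interval 65.7 to 79.3) in IgG. In numbers, IgG gave 21 U1 and 129 U6 cDNAs. The ratio of U1 to U6 cDNAs was 2.23 and 2.24 in the NSC34 libraries, 1.45 and 1.74 in the motoneuron libraries and 0.163 in IgG. Of the 10 hnRNP R libraries, the lowest ratio was 0.188, in the antibody 2 cytoplasmic library, from 3 U1 and 16 U6 cDNAs.

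**Figure D4:**
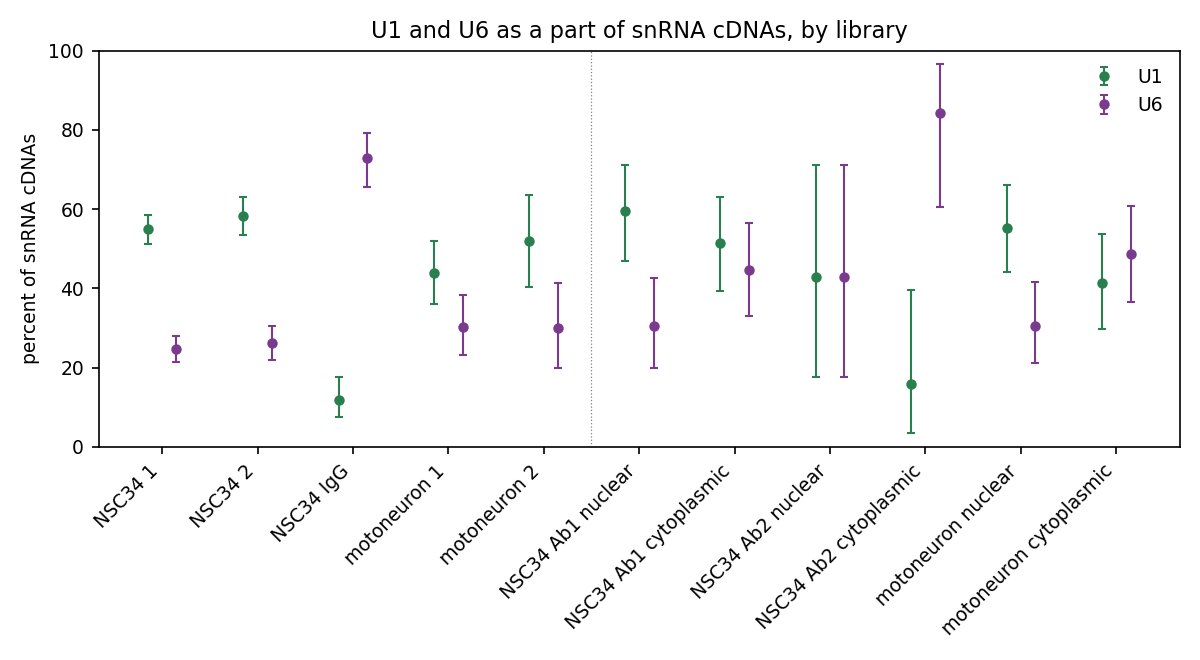
U1 (green) and U6 (purple) as percent of snRNA cDNAs in each library, with 95% exact binomial intervals. U1 lies above U6 in the whole-cell hnRNP R libraries, and the IgG library shows the opposite order, 11.9% against 72.9%.

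In CPM, U6 was lower with hnRNP R than with IgG. The whole-cell NSC34 libraries had 377 and 1093 U6 CPM and IgG 3556, a log2 fold change, hnRNP R over IgG, of -2.11 ± 0.37 (SE, edgeR adjusted p = 0.00114). DESeq2 did not call it (adjusted p = 0.714), nor did edgeR without NSC34 replicate 1 (adjusted p = 0.0525). U1 stood at 841 and 2446 CPM against 579 in IgG, a log2 fold change of 1.73 ± 0.49 that did not pass edgeR's test (adjusted p = 0.124). Other settings put its adjusted p between 0.000672 and 0.887, the last by crosslink sites, where the log2 fold change was -0.23. With 1 IgG library, the spread of IgG values is assumed to be that of the hnRNP R libraries.

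The scaRNAs were the snoRNA class furthest apart in IgG. They made up 0.0772% of IgG cDNAs (28 cDNAs) and 0.00359% over the 2 NSC34 hnRNP R libraries (20 cDNAs), a ratio of 21.5. snoU2-25, a guide for U2 modification, had 16 cDNAs in IgG, 1 and 1 in NSC34 with hnRNP R, and 7 and 0 in motoneurons. Its log2 fold change, hnRNP R over IgG, was -6.41 ± 0.99 (SE, edgeR adjusted p = 9.42e-05), and DESeq2 also called it (adjusted p = 0.0143). Without its IgG cDNAs, snoU2-25 would not have met the count required for a test. It was therefore tested through the library where it is high, and neither call is independent of that selection. Box H/ACA RNAs took 0.0138% of IgG and 0.0144% of hnRNP R cDNAs.

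edgeR called 2 of 22 named RNAs between hnRNP R and IgG, both lower with hnRNP R (0.398% of all features were called, 0.115% higher and 0.283% lower). Of 38 records 2 were lower, beside 0.533% of genes called and 0.334% called lower: snoU2-25 and U6-ENSMUSG00000070238, which lost its call without NSC34 replicate 2 (edgeR adjusted p = 0.0925). No member was called higher with hnRNP R, while 0.199% of the genes tested were, but U1 was called higher with DESeq2 size factors, by library size alone or with no filter (edgeR adjusted p = 0.00326, 0.0426 and 0.00264). At an unadjusted p below 0.05 there were 14 of the 38 records, beside 987 of all 9567 genes (10.3%), and DESeq2 called 1 of the records, beside 11 genes in all. Without NSC34 replicate 1 there were 4 calls, 2 of them higher.

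Between nucleus and cytoplasm, the snRNA share moved in opposite directions in the 2 cell kinds. In NSC34 it was 0.143% nuclear and 2.07% cytoplasmic with antibody 1, and 0.187% and 0.680% with antibody 2. In motoneurons it was 0.0931% nuclear and 0.0359% cytoplasmic, 2.59-fold higher in the nucleus. The mean nuclear minus cytoplasmic difference was -0.789 percentage points ± 1.03 (SD, n = 3 pairs), with a two-sided exact permutation p of 0.5, where 3 pairs allow no p below 0.25. The NSC34 cytoplasmic libraries are the smallest of all, 3569 and 2796 cDNAs, and 7SK copies, which are not members, filled 30.1% and 15.8% of them, against 0.471% and 0.320% of their nuclear partners. In motoneurons 7SK copies filled 1.35% of the cytoplasmic and 0.135% of the nuclear library.

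U1 was lower relative to U6 in the cytoplasmic fraction of every pair. The ratio of U1 to U6 cDNAs was 1.95 nuclear and 1.15 cytoplasmic in NSC34 with antibody 1, 1.0 and 0.188 with antibody 2, and 1.81 and 0.853 in motoneurons. The binomial intervals of the U1 percentage overlapped within each pair, 42.9% (17.7 to 71.1) against 15.8% (3.38 to 39.6) with antibody 2. This order was chosen for mention after its values were seen, and has no test.

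The snoRNA share was higher in the nucleus in motoneurons, and was not resolved in either NSC34 pair. It was 0.0227% nuclear against 0 of 3569 cDNAs cytoplasmic in NSC34 with antibody 1, where a count of 0 allows up to 0.0841%, so that no difference was detectable at this depth. With antibody 2 it was 0.0934% (7 cDNAs, binomial interval 0.0376 to 0.192) against 0.0358% (1 cDNA, interval 0.000905 to 0.199). These intervals overlapped. In motoneurons it was 0.226% (206 cDNAs) against 0.0205% (40 cDNAs), 11.0-fold higher. The mean difference was 0.0952 percentage points ± 0.0968 (SD, n = 3 pairs), with an exact permutation p of 0.25, the smallest possible. This mean takes the cytoplasmic share of the antibody 1 NSC34 pair at its value of 0.

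In motoneurons each snoRNA class was higher in the nucleus. Box C/D RNAs gave 110 nuclear and 28 cytoplasmic cDNAs, a ratio of shares of 8.38. Box H/ACA RNAs gave 80 and 9, a ratio of 19.0, and scaRNAs 11 and 2. In the nuclear library 112 snoRNA records had a cDNA, against 34 in the cytoplasmic library, which was the deeper.

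U8 (Snord118, chr11:68886928-68887062, plus strand) led, with 18 nuclear and 0 cytoplasmic motoneuron cDNAs on that record and 19 and 0 over its name, at least 13.5-fold higher in the nucleus. SNORD12 had 17 and 0 (at least 12.1-fold), and SNORA63, an H/ACA snoRNA, 10 and 0 (at least 7.11-fold). These bounds set the cytoplasmic library at 3 cDNAs and describe 2 libraries without replicates. The neuronal families differed less: SNORD115 had 10 nuclear and 8 cytoplasmic cDNAs (2.67-fold in CPM) and SNORD113 had 6 and 8 (1.60-fold). SNORD116, also of the Prader-Willi region, had 3 cDNAs in all, each in the motoneuron cytoplasmic library.

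**Figure D5:**
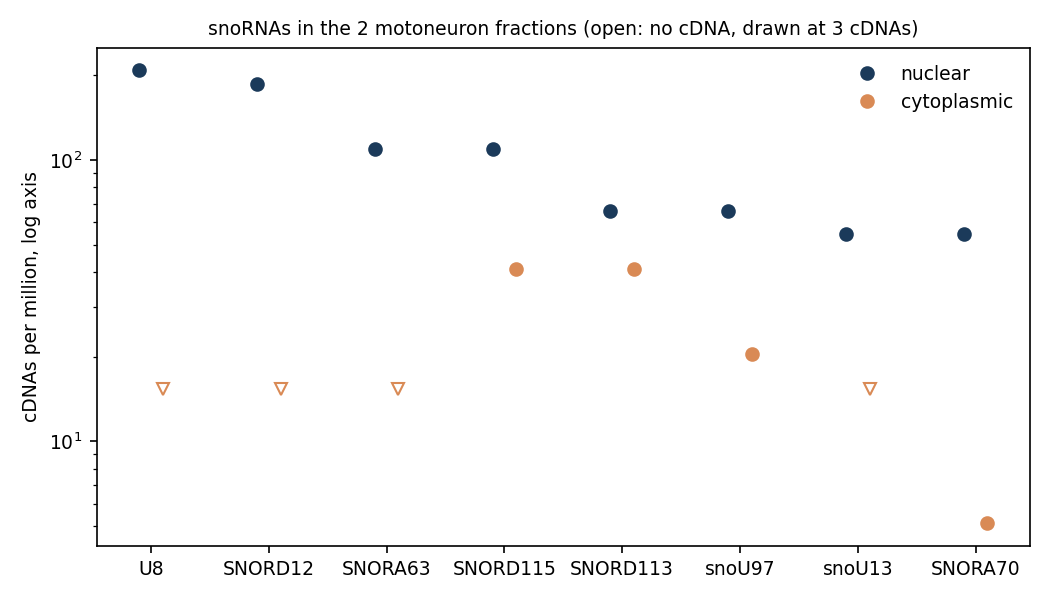
CPM of 8 snoRNA names in the motoneuron nuclear and cytoplasmic libraries, log axis. Open triangles stand for no cDNA and are drawn at the level of 3 cDNAs. U8, SNORD12 and SNORA63 have 19, 17 and 10 nuclear cDNAs and none in the cytoplasm, while SNORD115 and SNORD113 have 8 and 8 there.

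Over all 3 pairs, no member passed the test. edgeR called 0 of 6 records and 0 of 9 names between nucleus and cytoplasm, as it did for 0.0% of all genes, and DESeq2 called 0 of them. At an unadjusted p below 0.05 there were 1 record, U8, and 3 names, U8, SNORD12 and SNORA63, each with an edgeR adjusted p of 1.0, beside 27 of all 5177 records and 29 of 5180 names and genes. Each of these 3 names met the required 10 cDNAs in the motoneuron nuclear library alone, where it is high. For U1 the log2 fold change was 0.03 ± 1.56 (SE), and for U6 -1.44 ± 1.75, so that a change of several-fold in either direction would not be resolved.

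The 2 antibodies were compared in the NSC34 fractions, and edgeR called none of the 6 records or 9 names (0.0% of all genes, 0 members at an unadjusted p below 0.05, 0 by DESeq2). U1 counted 6 nuclear and 3 cytoplasmic cDNAs with antibody 2, and 41 and 38 with antibody 1. Its log2 fold change, antibody 2 over antibody 1, was -2.54 ± 2.14 (SE), an interval of -6.74 to 1.66. U6 counted 6 and 16 against 21 and 33, a log2 fold change of -0.57 ± 1.93. These intervals do not show that the antibodies recover the same amounts.

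Between motoneuron and NSC34 fractions with antibody 1, edgeR again called no member (0.0% of all genes). DESeq2 called 99 genes and no member, and 1 record and 2 names had an unadjusted p below 0.05, beside 460 of all 5177 records and 457 of 5180 names and genes. U1 and U6 had log2 fold changes of -2.06 ± 2.16 and -1.52 ± 2.10 (SE). SNORD115 had 10 nuclear and 8 cytoplasmic motoneuron cDNAs (110 and 41.1 CPM), and SNORD113 6 and 8 (65.7 and 41.1 CPM). Both were at 0 in each NSC34 fraction, where 3 cDNAs stand for 62.0 CPM (nuclear) and 841 CPM (cytoplasmic). The cytoplasmic counts of 0 could therefore not have shown a difference, and the nuclear count of 0 for SNORD113 barely could.

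Over all libraries pooled, IgG included, recovered snoRNAs lay mostly in host genes. Hosts were protein-coding, processed transcript or long intergenic noncoding RNA genes that held the whole record. Such a gene on the same strand enclosed 400 of 1545 snoRNA records (25.9%), and 178 of these 400 had a cDNA. Of 937 records that no such gene enclosed, 72 had a cDNA, as did 2 of 208 enclosed on the opposite strand only. The 400 records took 70.1% of snoRNA cDNAs. For snRNAs a same-strand gene enclosed 18.4% of records, which took 30.6% of cDNAs. A cDNA from a host's unspliced RNA over the snoRNA would count on the record too, so the host gives a level to compare. Per kilobase, enclosed snoRNAs had 29.3 times the cDNAs of their hosts in the motoneuron nuclear library and 1.49 times in the cytoplasmic library. The ratio was 7.16 and 2.94 in whole motoneurons, 5.88 and 5.77 in whole NSC34 cells and 19.9 in IgG.

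The genes of the snRNP and snoRNP proteins, which bind these RNAs, were listed with the snoRNA hosts. Of 32 protein genes, 20 were tested between motoneurons and NSC34: Snrpn, a neuronal Sm protein gene of the Prader-Willi region, was higher in motoneurons, and Nop58, a box C/D core protein gene, and Snrpd3, an Sm protein gene, were lower, 3 calls beside 37.3% of all genes. The median log2 fold change of the 20 was -0.77, and edgeR called 0 of the 20 between hnRNP R and IgG, beside 0.533% of all genes. Of 26 listed snoRNA hosts, 16 were tested, with 1 higher in motoneurons (Snhg11) and 4 lower (Cct6a, Ncl, Rnf149 and Rpl3), 5 calls beside the same 37.3%. The list of other small structured RNAs gave no value, since 0 of its 8 names stand in the annotation of the iCLIP files.

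The total RNA tables of the series, from motoneurons grown in chambers that separate axons from cell bodies, list the same RNAs after knockdown of 7SK or hnRNP R. Of 2882 member identifiers, 2198 matched a current symbol, and 2121 table entries held a member. For 7SK knockdown in the somatodendritic compartment, 95 entries were above 0 and the authors' deposited table tested 32. All 32 had the higher value after knockdown, beside 57.1% of all entries tested. An entry low in control could be tested through a high knockdown value, while Rnu11, listed at 2.31 FPKM in control and 0 after knockdown, was not tested, so nothing is read from the direction. A single entry passed a q of 0.05 (2.51% of all entries tested did), the merged Gas5 locus with its box C/D snoRNAs, at 198 FPKM in control and 531 after knockdown (authors' q = 0.00724). In that entry host and snoRNAs cannot be told apart. Snora73b, the U17 snoRNA of ribosomal RNA processing, stood at 47.7 and 182 FPKM (authors' q = 0.0749).

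For hnRNP R knockdown in the same compartment, 19 of 20 tested entries in the authors' deposited table had the higher value, beside 52.7% of all entries tested, and none passed (0.975% of all entries did). These 20 were among 91 entries above 0. Snora73b stood there at 51.9 and 125 FPKM (authors' q = 0.281). In axons none passed for 7SK (16 of 17 tested higher, beside 62.2% of all entries tested, with 3.07% of all called) or for hnRNP R (5 of 9 higher, beside 58.6%, with 0.114% called). There 93 and 86 entries were above 0. Both knockdowns share their control libraries, so the directions of the 2 comparisons are not independent. In the authors' deposited table Snord118 in axons stood at 40.6 FPKM in control and 70.2 after 7SK knockdown (authors' q = 0.662), and at 39.6 and 11.2 in the hnRNP R comparison (authors' q = 0.732).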

How the data were processed

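The iCLIP files hold, per gene of Ensembl release 59 on mm9 (per the file headers), deposited counts of cDNAs and of crosslink sites, and the same-strand cDNA column was used. No source used here states how reads on near-identical copies were assigned. The RNA tables hold the authors' FPKM values, log2 ratios, p-values and q-values from comparisons whose processing notes name Cufflinks 2.2.1. A further 1276 value columns of the iCLIP files were not used.

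Counts were tested with edgeR 4.0.16 (R 4.3.3), quasi-likelihood test, TMM factors, at least 10 cDNAs over the libraries of the fit, Benjamini-Hochberg adjustment over all genes and a threshold of 0.05. DESeq2 1.42.0 was an alternative. The 5 whole-cell libraries shared a fit, as did the 6 fraction libraries, where the pair was a block in the nuclear against cytoplasmic test. Pairs share the library number in their file headers (8, 9 and 10). SE is the log2 fold change over the root of its F statistic. TMM factors ran from 0.629 to 1.53 in the whole-cell libraries and from 0.399 to 2.58 in the fractions, and CPM values do not include them. The scripts were tested on simulated data.

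Members were picked for naming from the fixed RNA families and the 10 records per biotype highest in mean CPM over the hnRNP R libraries. The 10 called members per direction and comparison with the largest change were a further source. Not every member under these rules is named in the text. The members and lists were chosen with earlier results of these data known. Coordinates are mm9. No sequence of these RNAs was used.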

Additional observations from a re-analysis of the deposited data

Results flagged for a closer look

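The nuclear minus cytoplasmic difference in snRNA share was 0.0572 percentage points in motoneurons, and negative in both NSC34 pairs (-1.93 with antibody 1 and -0.493 with antibody 2). U1 showed the same split, with a difference of 366 CPM in motoneurons (515 nuclear, 149 cytoplasmic) and lower nuclear values in both NSC34 pairs (847 against 10647 with antibody 1, 801 against 1073 with antibody 2). For U6 the motoneuron difference was 110 CPM (285 nuclear, 175 cytoplasmic), against 434 and 9246 in the antibody 1 pair and 801 and 5722 in the antibody 2 pair. All 3 stood out because the motoneuron pair moved one way and both NSC34 pairs the other. The difference between cell kinds was not tested, since motoneurons have 1 pair.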

How the results depend on the processing

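Depth limits the fractions most, where the smallest libraries held 2796 and 3569 cDNAs and 6 member records could be tested. Between motoneurons and NSC34, 19 records were called, 8 by DESeq2's Wald test, 6 by crosslink sites and 10 as summed names, and 11 to 17 when 1 library was left out, the lowest without NSC34 replicate 2. The 10 named RNAs called became 3 by DESeq2 and 6 to 9 with 1 library left out, the lowest without NSC34 replicate 1. With the replicate number as a block, 15 records and 10 names were called. Calls over all genes fell with DESeq2's Wald test as well, from 3566 by edgeR to 1497 of 9567 genes. With names summed they fell from 3517 to 1492 of 9551 features. The fall in member calls was therefore not particular to the members. The labels give only shared numbers, and replicate deviations did not correlate (r = 0.00295 across 9567 genes, which are not independent replicates). Without the pair block, the nuclear against cytoplasmic test still called 0 members. Between hnRNP R and IgG, the 2 records became 4 with DESeq2 size factors, 5 by library size, 1 by DESeq2's Wald test, 1 by sites and 1 to 4 with a library left out. The 2 names became 1 by the Wald test and 3 with DESeq2 size factors or by library size, U1 being the name gained. U1-ENSMUSG00000075736 turned from -1.43 to 0.10 by crosslink sites. The difference in snoRNA share, motoneurons minus NSC34, was -0.0011 percentage points and ran from -0.016 to 0.0138 with a library left out. A total without misc_RNA genes, added after seeing the data, put the nuclear minus cytoplasmic snRNA difference at -1.19 percentage points. The cause was not tested for any of these, except that summing names and leaving out libraries leave fewer features or samples. Of 394 refits of single members, 62 lost their call, 4 gained one and 13 changed sign, 1 of these in a called member. The other sign changes were U2 between cell kinds, U1 between nucleus and cytoplasm, and U1 against IgG, which turned from 1.73 to -0.23 by crosslink sites, none of them called.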
